A study of Homo sapiens with 2 samples.

Results

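Genes for chromatin modifiers and remodellers were followed after knockdown of CDX2, the homeobox factor that specifies intestinal epithelium, in the human colorectal cancer line COLO320, which has neuroendocrine features. The genes were taken by symbol from the lysine demethylases (KDM), histone deacetylases (HDAC), sirtuins (SIRT), lysine methyltransferases (KMT), DNA methyltransferases (DNMT) and TET dioxygenases, Polycomb and chromobox proteins (EZH, SUZ12, BMI1, CBX), bromodomain proteins (BRD), the acetyltransferases EP300 and CREBBP, and the SMARC, ARID and CHD proteins. Of the 96 genes so named in the platform annotation, after 2 pseudogenes had been left out, 92 had a ratio on both arrays, among 12842 genes tested in all. The 4 without one were CBX2, CHD5, DNMT3L and KDM7A-DT, each listed at exactly 0. BRD3OS was taken by its symbol and is counted among the 92, although it is the gene on the strand opposite BRD3 and is not named for a bromodomain of its own.

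Cells had been transfected with 100 nM of CDX2 siRNA 6, of CDX2 siRNA 8 or of a non-targeting control siRNA, so that siRNA transfection was common to all cells, and RNA was taken 24 h after the medium was changed. On each of 2 two-colour Agilent arrays, RNA of 1 CDX2 siRNA carried Cy5 and time-matched control RNA carried Cy3. Every value below is therefore a log2 ratio of CDX2 siRNA over control, where 0 means equal signal in both channels, and means are given with the SD over the 2 siRNAs (n = 2). A ratio holds no absolute level, so neither the order of expression among genes nor the identity of the cells could be read from marker levels. CDX2 itself stood at -1.44 with siRNA 6 and -1.41 with siRNA 8, a mean of 37.3% of control (limma adjusted p = 0.00164). Of all tested genes, 6.23% had a lower mean ratio than CDX2. The dyes were not swapped, and the labels leave unstated whether 1 control RNA served both arrays.

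DNA is wound on histones, and the marks on histones and on DNA set how open a stretch of chromatin is. Writers such as the KMT enzymes, EP300 and CREBBP add methyl or acetyl groups, erasers such as the KDM, HDAC and SIRT enzymes remove them, and readers such as bromodomain and chromobox proteins bind them. Remodellers use ATP to move nucleosomes, with ATPases among the SMARCA and CHD proteins and with other SMARC proteins, ARID1A, ARID1B and ARID2 among the further subunits of their complexes. In intestinal cells, enhancers bound by lineage factors such as CDX2 carry acetylation and methylation laid down by enzymes of these families.

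Most chromatin genes did not pass the test. Past a limma adjusted p of 0.05, 6 of the 92 were higher and 22 were lower with CDX2 siRNA, and 64 did not pass. The 28 that passed make up 30.4% of the members, against 40.7% of all tested genes. Split by direction, 6.52% of the members were higher, against 12.1% of all genes, and 23.9% were lower, against 28.6%. At least 1.5-fold higher on both arrays were 4 members (7.8% of all genes), and at least 1.5-fold lower were 11 (18.4% of all genes). Past 2-fold in both hybridizations, 2 members were higher, HDAC9 and KDM4C (5.31% of all genes), and 4 were lower, BRD10, KDM1B, HDAC11 and KMT2E (9.55% of all genes). The share of members that moved was thus below the background by each of these measures. The median log2 ratio was -0.20 over the members and -0.13 over all genes. With each array centred on its median, 10 members were higher (10.9%, against 16.5% of all genes) and 16 lower (17.4%, against 22.7%). Of the members that passed, 61.5% were then lower, against 78.6% without centring. Over all genes the same share was 58.0% with centring and 70.2% without. These calls rest on reading exact zeros as not measured: with zeros taken as ratios, limma passed 0 members after adjustment, 33 of them having an unadjusted p under 0.05.

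The families did not move alike. The genes with KMT symbols held the highest share of lower genes, with 6 of 8 lower and 0 higher. Of these, KMT2A and KMT2C did not pass with the median feature in place of the mean, nor KMT5B with centred arrays. Among the methyltransferases of the list of other chromatin genes described below, only SUV39H1 and NSD3 passed, both lower. The SMARC and ARID1/2 subunits of the BAF and ISWI remodellers held 1 of 13 past the threshold, and the DNA methyltransferases and TET enzymes 0 of 5. Demethylases, deacetylases and sirtuins were mixed, with 5 of 34 higher (14.7%) and 8 lower (23.5%). These shares were near those over all genes, 12.1% higher and 28.6% lower. The families are small and no test was made between them.

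**Figure D1:**
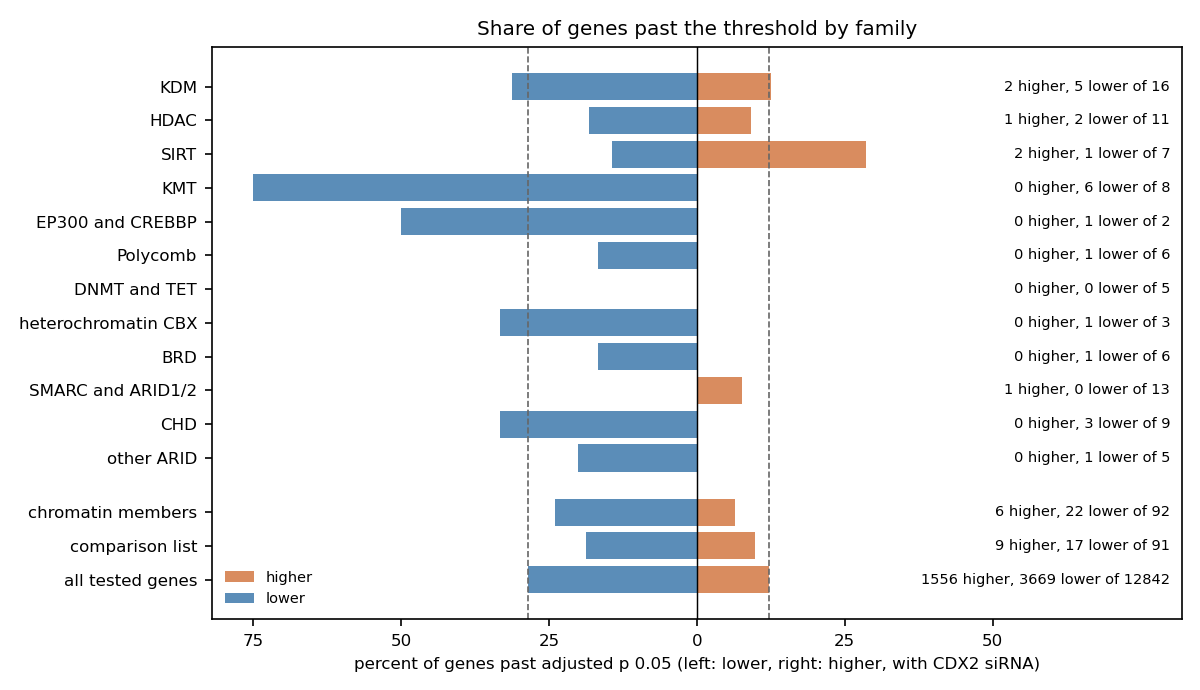
Percent of genes past a limma adjusted p of 0.05 in each family, lower to the left and higher to the right of 0, with counts at the right. Dashed lines mark the shares over all 12842 tested genes (28.6% lower, 12.1% higher), and the KMT bar, with 6 of 8 lower, reaches farthest to the left.

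Among the writers, the KMT2 enzymes methylate histone H3 at promoters and enhancers. KMT2D, which marks enhancers, had ratios of -1.13 with siRNA 6 and -0.84 with siRNA 8 (mean -0.98 ± 0.204). It was lower on both arrays (1.98-fold, limma adjusted p = 0.00605), and both of its features were lower, at -1.24 and -0.73 on the mean of the arrays. KMT2E, a divergent member of the family, stood at -1.06 with siRNA 6 and -1.12 with siRNA 8 and was 2.13-fold lower (limma adjusted p = 0.00266). That value averages 2 features that differ, at -2.09 and -0.095.

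KMT2A, the founding mixed-lineage leukaemia methyltransferase, had -0.57 with siRNA 6 and -0.69 with siRNA 8 (1.55-fold lower, limma adjusted p = 0.0109). Its 5 features ran from -1.97 to -0.064, and with the median feature in place of their mean the ratio was -0.36 and did not pass (limma adjusted p = 0.336). KMT2C, the paralogue of KMT2D, had -0.50 with siRNA 6 and -0.42 with siRNA 8, and its 5 features lay between -1.56 and 0.15. It too passed with the mean of its features and not with the median one. KMT2B, a promoter enzyme, was close to 0 at -0.12 with siRNA 6 and -0.055 with siRNA 8 and did not pass.

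The KMT5 enzymes methylate histone H4, KMT5A adding the first methyl group and KMT5B and KMT5C the further ones that mark heterochromatin. KMT5C had -0.83 with siRNA 6 and -1.45 with siRNA 8 and was 2.20-fold lower (mean -1.14 ± 0.437, limma adjusted p = 0.0135), from 1 feature. KMT5B had -0.49 and -1.09 with siRNA 6 and siRNA 8 and was 1.73-fold lower (limma adjusted p = 0.0332), a call lost when arrays were centred or quantile normalized. Both ratios were lower with siRNA 8 than with siRNA 6. KMT5A had 4 features within a narrow range, from -0.34 to -0.18, and did not pass.

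EP300 and CREBBP are paralogous acetyltransferases and coactivators of enhancers. EP300 had -0.92 with siRNA 6 and -1.75 with siRNA 8, a mean of -1.34 ± 0.588 and 2.52-fold lower (limma adjusted p = 0.0167). CREBBP had -0.15 with siRNA 6 and -0.032 with siRNA 8 and did not pass. EP300 was read by 11 features annotated to 1 transcript accession. With siRNA 6 these ran from -1.85 through a median of -0.69 to 0.060, and with siRNA 8 from -2.34 through -2.11 to 0.12. Their SD was 0.632 with siRNA 6 and 0.795 with siRNA 8, where the median SD over 172 accessions with 10 or more features was 0.0739 and 0.0791. The spread of EP300 was the 13th largest of the 172 with siRNA 6 and the 5th largest with siRNA 8. On the median feature EP300 stood at -1.40 and did not pass (limma adjusted p = 0.0686).

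The features of CREBBP were of a different kind. In 11 of its 12 features, all annotated to 1 accession, the ratios lay between -0.067 and 0.14 with siRNA 6 and between 0.027 and 0.19 with siRNA 8. The remaining feature, annotated to another accession, gave -1.58 with siRNA 6 and -1.34 with siRNA 8. With accessions weighted equally CREBBP was -0.71 and passed (limma adjusted p = 0.00856). HDAC1, with 10 features of 1 accession, showed the narrow spread too, with an SD of 0.0393 with siRNA 6 and 0.0263 with siRNA 8.

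Among the erasers, KDM1A and KDM1B are the flavin-dependent demethylases of histone H3. KDM1B had ratios of -1.54 with siRNA 6 and -1.46 with siRNA 8, close together, and was 2.83-fold lower (mean -1.50 ± 0.0535, limma adjusted p = 0.00157). It rested on 1 of 2 features, the other being listed at 0 on both arrays. KDM1A, the better known of the pair and a partner of HDAC1 and HDAC2 in the CoREST complex, had -0.28 with siRNA 6 and -0.18 with siRNA 8 and did not pass.

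The other KDM genes encode Jumonji-type demethylases. KDM4C, which removes repressive methylation from histone H3, had 1.53 with siRNA 6 and 1.44 with siRNA 8 and was 2.80-fold higher (limma adjusted p = 0.00162). The 3 features of KDM4C, each of its own accession, stood at 3.71, 0.66 and 0.082 on the mean of the arrays. Restricted to features annotated to RefSeq mRNAs, only the lowest of them was left, and KDM4C did not pass (0.082, limma adjusted p = 0.531). On the median feature it stood at 0.66. KDM4D, a close relative of KDM4C, moved the other way, with -0.99 with siRNA 6 and -0.84 with siRNA 8 from 1 feature (1.88-fold lower, limma adjusted p = 0.00469). KDM7A was 1.46-fold higher, at 0.61 with siRNA 6 and 0.47 with siRNA 8. KDM8 (1.44-fold), KDM2B, which brings a Polycomb complex to CpG islands (1.43-fold), and KDM6B, which removes the methyl mark of Polycomb (1.34-fold), were lower. KDM8 did not pass with RefSeq mRNA features alone, nor KDM6B with centred arrays. KDM6A, the X-linked relative of KDM6B, was close to 0, with 0.047 and 0.029 with siRNA 6 and siRNA 8.

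Deacetylases remove acetyl groups from histones and other proteins. HDAC9, a signal-responsive deacetylase known from muscle and immune cells, had the highest ratio of all 92 members, with 3.63 with siRNA 6 and 2.60 with siRNA 8. It was 8.67-fold higher (mean 3.12 ± 0.734, limma adjusted p = 0.00339). This ratio came from 1 of 3 features, and the other 2, annotated to other accessions, were listed at 0 on both arrays. Averaged with those zeros HDAC9 stood at 1.04. HDAC11 had -1.64 with siRNA 6 and -1.20 with siRNA 8 and was 2.67-fold lower (limma adjusted p = 0.00427), from 1 feature. HDAC6, a mostly cytoplasmic deacetylase that acts on tubulin, had -1.02 with siRNA 6 and -0.95 with siRNA 8, which averages 1 feature at -1.98 with another of a different accession at 0.010. The second of these is its only RefSeq mRNA feature, and with it alone HDAC6 did not pass (limma adjusted p = 0.937).

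The deacetylases of the nuclear corepressor complexes were nearer to 0. HDAC1 had 0.00095 with siRNA 6 and -0.086 with siRNA 8, and its paralogue HDAC2 had 0.00049 and -0.0061. HDAC3, the catalytic subunit of the NCOR complexes, had -0.33 with siRNA 6 and -0.28 with siRNA 8. None of HDAC1, HDAC2 and HDAC3 passed (limma adjusted p = 0.730, 0.981 and 0.0595), although HDAC3 passed under quantile normalization (0.0474).

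Sirtuins are deacylases that depend on NAD. SIRT2, the mainly cytosolic member, had nearly the same ratio with both siRNAs, 0.61 with siRNA 6 and 0.60 with siRNA 8, and was 1.52-fold higher (limma adjusted p = 0.0104). SIRT7, found in the nucleolus, was 1.30-fold higher and SIRT6, a nuclear enzyme of chromatin and telomeres, was 1.32-fold lower. SIRT6 did not pass with centred arrays. SIRT1, the best studied nuclear sirtuin, stood at -0.029 with siRNA 6 and -0.033 with siRNA 8 and did not pass. The mitochondrial SIRT4 had the lowest mean of the family, -0.75 with siRNA 6 and -0.19 with siRNA 8, and did not pass either.

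**Figure D2:**
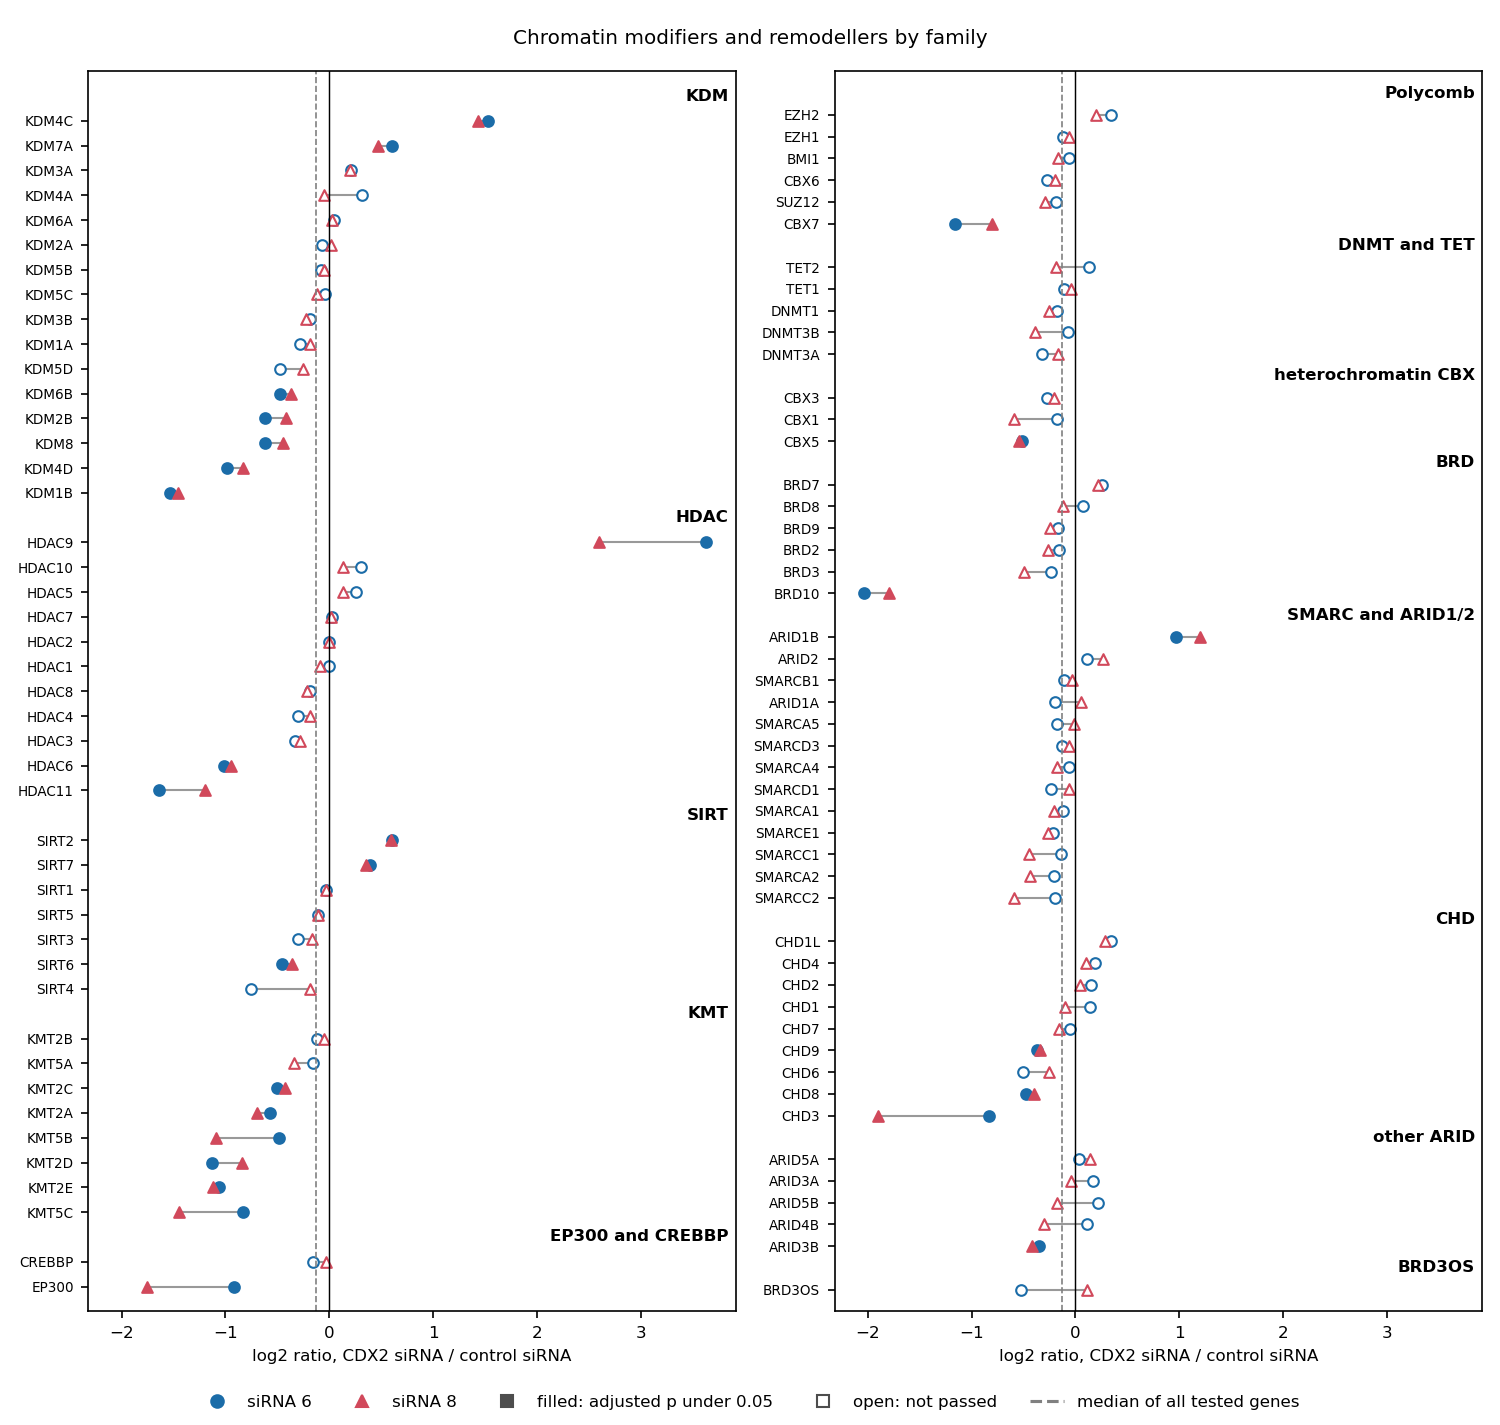
Log2 ratios of CDX2 siRNA over control for all 92 members, in families and sorted by mean, with circles for siRNA 6 and triangles for siRNA 8 (1 array each) joined by a line. Filled symbols passed a limma adjusted p of 0.05, the dashed line is the median of all tested genes (-0.13), and HDAC9 and BRD10 lie at the ends of the range.

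Polycomb proteins keep developmental genes silent through a methyltransferase complex (EZH1 or EZH2 with SUZ12) and a second complex that reads its mark through CBX proteins and contains BMI1. Of 6 members only CBX7 passed, with -1.16 with siRNA 6 and -0.81 with siRNA 8 (1.98-fold lower, limma adjusted p = 0.00773). Its 3 features ran from -1.78 to -0.27, and on the median feature it did not pass. EZH2, the catalytic subunit of dividing cells, had 0.34 with siRNA 6 and 0.20 with siRNA 8 and did not pass (limma adjusted p = 0.0925), except with centred arrays (0.0407). EZH1, SUZ12 and BMI1 had means of -0.095, -0.24 and -0.11 and did not pass.

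DNA methylation is copied by DNMT1, set anew by DNMT3A and DNMT3B, and oxidised by TET enzymes. DNMT1 had -0.18 with siRNA 6 and -0.25 with siRNA 8, and DNMT3B had -0.072 and -0.39. The 2 features of DNMT3A, of different accessions, lay on opposite sides of 0, at -0.72 and 0.23, and averaged to -0.25. On the lower feature alone, the median feature by the rule used here, DNMT3A passed (limma adjusted p = 0.0126). TET2 showed the same kind of split, with features at -0.62 and 0.57, and TET1 had a mean of -0.078. None of the 5 passed on the mean of their features.

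Readers were represented by chromobox and bromodomain proteins. The heterochromatin proteins CBX1, CBX3 and CBX5 bind the methyl mark that KDM4 enzymes remove. CBX5 had -0.52 with siRNA 6 and -0.54 with siRNA 8 and was 1.44-fold lower (mean -0.53 ± 0.0148, limma adjusted p = 0.0146), with all 3 features below 0. CBX1 and CBX3 had means of -0.39 and -0.24 and did not pass. BRD10 had the lowest mean of all 92 members, with -2.04 with siRNA 6 and -1.79 with siRNA 8 from 1 feature (3.77-fold lower, limma adjusted p = 0.00146). Genes outside the members had nearly the same pair of ratios, among them AKT1 (-2.06 and -1.82) and AP1S3 (-2.03 and -1.80). So did the lowest feature of HDAC6 (-2.11 and -1.85) and that of KMT2A (-2.07 and -1.86), both members that passed. The cause of this likeness was not tested. The BET proteins BRD2 and BRD3, which bind acetylated histones, did not pass (means -0.21 and -0.37). The 2 features of BRD2 stood at 0.038 and -0.46. On the lower one, the median feature by the rule used here, BRD2 passed (limma adjusted p = 0.0344). BRD7, a subunit of a BAF-type remodeller, did not pass either (0.24), except with centred arrays (limma adjusted p = 0.0395).

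Among the remodellers, 1 of the 13 SMARC and ARID1/2 genes passed. SMARCA4, one of the 2 ATPases, had -0.066 with siRNA 6 and -0.18 with siRNA 8, and the core subunit SMARCB1 had -0.11 and -0.034. Neither passed, and neither did ARID1A, the subunit often mutated in cancer, with -0.20 and 0.049. SMARCA2, the other ATPase, had -0.21 with siRNA 6 and -0.44 with siRNA 8 from 3 features, which stood at -1.14, -0.92 and 1.08. It did not pass on their mean (limma adjusted p = 0.0770), but did on the median feature (-0.92, limma adjusted p = 0.0101) and with accessions weighted equally (-0.47, limma adjusted p = 0.0312). SMARCC2, a scaffold subunit, had the lowest mean of this family (-0.39 ± 0.279) and did not pass. The gene that passed was ARID1B, the paralogue of ARID1A, with 0.97 with siRNA 6 and 1.20 with siRNA 8 (2.12-fold higher, limma adjusted p = 0.00400). Its 2 features stood at 1.88 and 0.28, and on the lower one, the median feature by the rule used here, it did not pass (limma adjusted p = 0.109).

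CHD3 and CHD4 are alternative ATPases of the NuRD corepressor. CHD3 had -0.83 with siRNA 6 and -1.91 with siRNA 8 from 1 feature, the widest gap between the arrays of all 92 members. It was 2.58-fold lower (mean -1.37 ± 0.762, limma adjusted p = 0.0281) and did not pass under quantile normalization (0.0571). CHD4 had 0.19 with siRNA 6 and 0.10 with siRNA 8 and did not pass. CHD8, which binds beta-catenin, was 1.35-fold lower and CHD9 1.28-fold lower, and neither passed with centred arrays. CHD9 averages 1 feature at -1.22 with 2 others of -0.039 and 0.19. CHD1L had 0.35 with siRNA 6 and 0.29 with siRNA 8, just outside the threshold (limma adjusted p = 0.0549). It passed with centred arrays (limma adjusted p = 0.0255) and under quantile normalization (0.0482). Of 5 other ARID genes, which encode DNA-binding factors, ARID3B was 1.31-fold lower, though not with centred arrays, and ARID5A had the highest mean (0.089).

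Promoters were searched for TTTATG, the core of a CDX-type homeobox site, and for CATAAA, the same core read on the other strand. A promoter here is 300 bases, from 250 before to 50 after an annotated start, taken from RefSeq on GRCh38.p14, where 83 of the 92 genes matched with 136 starts. These letters were present in 6 of the 136 promoters (4.41%), in 6.03% of the promoters of all tested genes and in 10.6% of all promoters in the table. The median number of CG dinucleotides was 28.5 per promoter in the members and 25 in all tested genes. A match is a description of letters and not a site. The promoters of the 3 members that passed the threshold and held a match are shown, all of genes that were lower, with the match in capitals. That of CHD3 is its only start in the table, at chr17:7888539-7888838 on the plus strand, that of CBX5 is 1 of 3, at chr12:54259537-54259836 on the minus strand, and that of CHD9 is 1 of 4, at chr16:53207715-53208014 on the plus strand.
CHD3: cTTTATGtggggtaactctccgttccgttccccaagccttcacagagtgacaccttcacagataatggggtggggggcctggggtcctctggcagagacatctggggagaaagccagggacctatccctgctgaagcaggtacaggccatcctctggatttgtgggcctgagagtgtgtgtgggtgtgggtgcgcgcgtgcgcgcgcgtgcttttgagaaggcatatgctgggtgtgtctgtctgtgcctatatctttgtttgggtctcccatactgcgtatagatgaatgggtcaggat
CBX5: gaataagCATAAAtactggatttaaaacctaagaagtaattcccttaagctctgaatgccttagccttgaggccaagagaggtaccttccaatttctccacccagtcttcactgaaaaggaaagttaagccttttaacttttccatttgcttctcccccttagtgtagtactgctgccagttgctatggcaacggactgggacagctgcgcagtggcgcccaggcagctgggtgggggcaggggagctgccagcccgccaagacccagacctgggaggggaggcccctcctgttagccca
CHD9: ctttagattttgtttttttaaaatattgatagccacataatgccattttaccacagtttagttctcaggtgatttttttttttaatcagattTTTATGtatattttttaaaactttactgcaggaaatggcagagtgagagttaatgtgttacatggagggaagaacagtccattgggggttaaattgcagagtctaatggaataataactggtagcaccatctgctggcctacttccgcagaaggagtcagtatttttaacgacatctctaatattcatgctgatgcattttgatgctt

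Counted from the start, the match began at position -249 in CHD3, -243 in CBX5 and -158 in CHD9. Among members that passed, 3 of 45 promoters held a match (6.67%), against 3 of 91 (3.30%) among members that did not. No match was found in the promoters of the other members that passed and were in the table, among them BRD10, KDM1B and HDAC9. No measurement here bears on binding of CDX2 to any of them.

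Several features of a gene often disagreed. The 92 members were read by 196 features with a ratio on both arrays, 44 genes by 1 feature and 48 by several. In 16 of the 48 (33.3%) the lowest and the highest feature lay at least 1 log2 unit apart on the mean of the arrays, where the share was 30.8% over all 4933 genes with several features. Of the 28 members that passed, 13 rested on 1 feature, as did 3271 of the 5225 genes that passed among all tested genes. In 9 of the other 15 the features lay at least 1 log2 unit apart. In 11 of those 15 every feature was on the called side of 0, and in 1, KMT2D, every feature was also at least 1.5-fold lower. The counts within the 15 were not made over all genes that passed, so they cannot be read as particular to the members.

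There were 16 member features at least 2-fold lower on both arrays, in 12 genes, with a median of -1.78. In 9 of these genes there were 32 other features, with a median of -0.029. By the split itself these others fell short of the 2-fold limit, and 11 of them were of CREBBP. The 4 features at least 2-fold higher on both arrays, of KDM4C, HDAC9, ARID1B and SMARCA2, had a median of 2.50. The 5 other features, in 3 of these genes, had a median of 0.082. The same counts over all features of the array are not given here. Features of 1 gene can read different transcripts, and the table holds no intensities, so that dim features could not be told from bright ones.

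**Figure D3:**
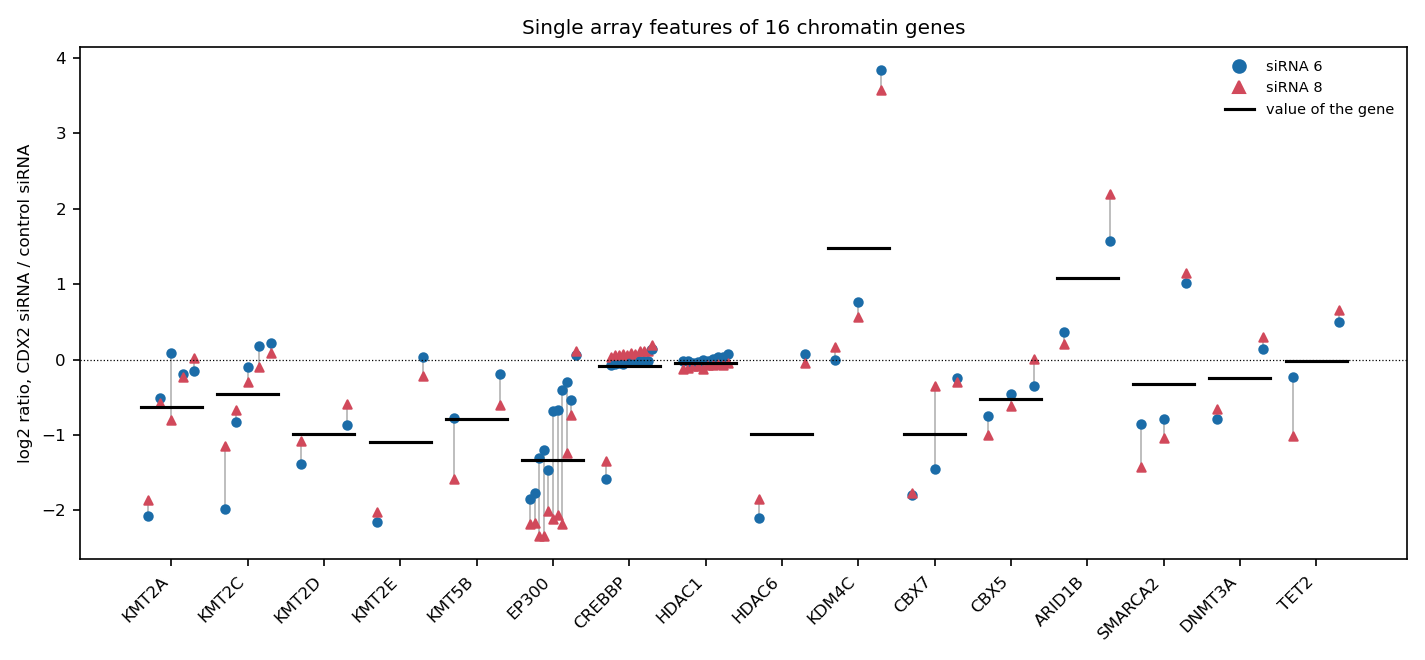
Log2 ratios of single array features for 16 chromatin genes, chosen after their values were seen, with circles for siRNA 6 and triangles for siRNA 8 joined by a line and the value of the gene as a black bar. HDAC1 and 11 of the 12 CREBBP features lie close to 0, the 11 EP300 features run from near 0 to below -2, and single features carry the values of KDM4C, HDAC6 and KMT2E.

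The siRNAs mostly gave the same sign. In 80 of the 92 members (87.0%) both ratios lay on the same side of 0, against 85.2% of all genes. The arrays may share control RNA, so this share is a description. Both arrays differed by a median of 0.11 over the members and 0.15 over all genes. The widest gaps were those of CHD3, HDAC9 and EP300, all 3 of which had the same sign on both arrays. Of the 12 members with opposite signs, BRD3OS reached the largest ratio, -0.53 with siRNA 6 and 0.11 with siRNA 8, and it did not pass.

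**Figure D4:**
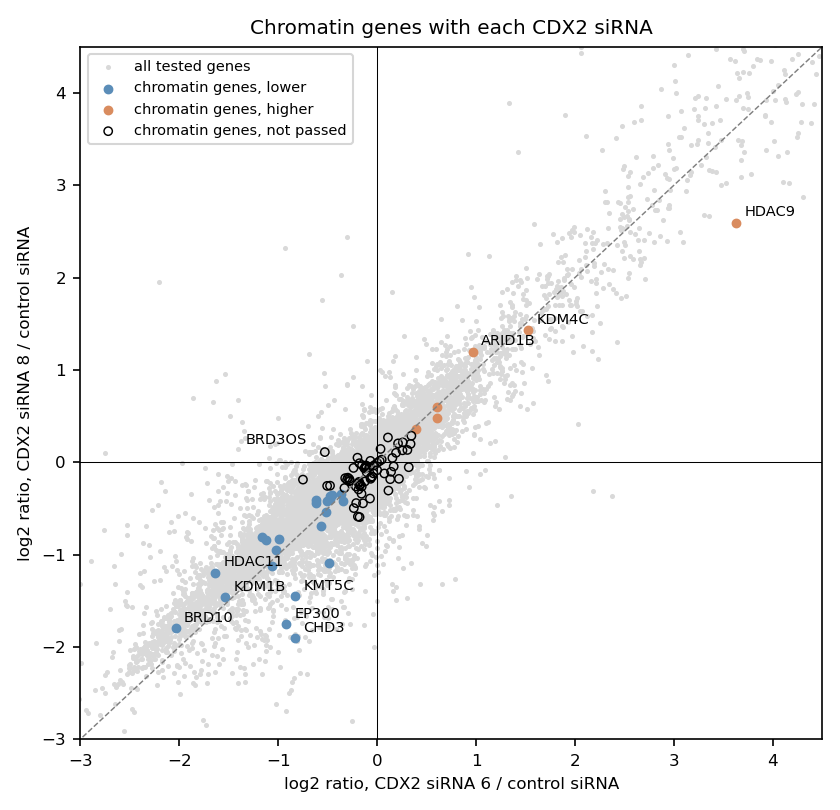
Log2 ratio with siRNA 8 against that with siRNA 6, for all tested genes in grey (230 lie outside the axes) and for the 92 members, coloured where they passed a limma adjusted p of 0.05. The dashed line marks equal ratios, and CHD3, EP300 and KMT5C lie below it, lower with siRNA 8 than with siRNA 6.

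Other chromatin genes outside the symbol families gave a similar picture. Of 100 such genes, partners and relatives of the members, 91 were tested, and 9 were higher, 17 lower and 65 did not pass (28.6% called, median -0.15), against 40.7% of all genes. GATAD2B, a NuRD subunit, had -1.94 with siRNA 6 and -1.85 with siRNA 8 (3.72-fold lower), KAT2B, an acetyltransferase, was 2.94-fold lower, and RBBP5, a partner of the KMT2 enzymes, was 2.78-fold lower. BRPF3, a scaffold of acetyltransferases, had 1.18 with siRNA 6 and 1.27 with siRNA 8 (2.33-fold higher), PBRM1, a BAF-type subunit, was 2.25-fold higher, and PHC2, a Polycomb subunit, was 1.63-fold higher. All 6 passed, with a limma adjusted p between 0.00117 and 0.0115. PHC2 did not pass on its median feature (0.084, limma adjusted p = 0.509).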

How the data were processed

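The authors deposited 1 log10 ratio (Cy5 over Cy3) per feature for each of 2 two-colour Agilent arrays, made with Agilent Feature Extraction 9.5.3, per the submitters' processing notes; base 10 is that tool's convention, and its background and dye correction are not given in the sources used here. They were converted to log2, and exact zeros (37.1% and 38.7% of the 45015 features) were read as not measured. Per the labels Cy5 holds CDX2 siRNA. Of the features, 31332 were paired with 1 gene in the platform annotation, 93 with several and 13590 with none. No symbol differed from the RefSeq table. Features with a ratio on both arrays were averaged per gene, and 12842 genes entered a limma 3.58.1 fit (R 4.3.3, intercept only, eBayes, 1 residual degree of freedom, Benjamini-Hochberg over all genes, threshold 0.05). Nothing says whether the siRNAs came from separate cultures, so p-values cannot be read as variation between cultures, and the number of arrays limits the precision. The variance of each gene joined the gap between its arrays (1 degree of freedom) with a prior pooled over all genes (2.875 degrees of freedom). The p-values thus rest on this prior as well as on how far both arrays differ. Tables and figures used Python 3.11.15 with pandas 2.3.3. On 20 simulated sets of 12842 genes with 200 changed, the fit recovered 1.6% of 1.5-fold, 54.6% of 2-fold and 95.2% of 4-fold changes, with 5.63% of calls false; many more than 200 genes passed in the data, so these shares do not carry over.

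The members, lists and tests were chosen with earlier results of these data known. Named genes are CDX2, members past the threshold and at least 2-fold on both arrays, the highest and lowest of each family, central enzymes and subunits of each complex, the 3 widest gaps between arrays, genes whose accessions lie at least 1 log2 unit apart, and 3 genes per direction of the comparison list. Other members are named where a family is described, and were chosen after their values were seen. Alternatives covered centring, quantile normalization, exact zeros, the median feature (the lower of a middle pair), RefSeq mRNA features, a robust prior, the log base, each array alone and, added after the data were seen, equal weight per accession.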

Additional observations from a re-analysis of the deposited data

How the results depend on the processing

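When features at exactly 0 counted as measured, limma called 0 members higher and 0 lower of 96, and 0 of 18334 genes, with 33 members and 5218 genes at an unadjusted p under 0.05; with a robust prior it called the same 28 members. Genes at 0 on both arrays then enter the variance prior. Centring gave 10 members higher. At least 1.5-fold higher on both arrays were 2 members with the median feature and 1 with values read as log2, a reading that left 0 members at least 1.5-fold lower. The median over members was -0.074 with centring, -0.16 with zeros kept, -0.12 with RefSeq mRNA features and -0.061 with values read as log2, and between -0.18 and -0.16 with 1 array left out. The other alternatives moved these counts by less than 1.5 times. No paired analysis was possible because each array already holds 1 siRNA and its control.

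Direction turned with centring in 21 of the 92 members, none of which had passed. Among the named genes these were ARID1A (0.053), BMI1 (0.013), CREBBP (0.035), EZH1 (0.033), HDAC1 (0.085), HDAC2 (0.12), KMT2B (0.041), SIRT1 (0.097), SMARCA4 (0.0048), SMARCB1 (0.054), TET1 (0.050) and TET2 (0.10). It turned with the median feature in 4 members, including ARID1A (0.14) and CREBBP (0.014), and with RefSeq mRNA features in 2 of 91, including HDAC6 (0.010), which had passed. Of the 28 members that passed, 22 kept their call with centring, 26 with quantile normalization, 22 with the median feature, 25 with RefSeq mRNA features and 28 with accessions weighted equally. The median feature could not change the value of the 13 members that rested on 1 feature. In a gene with 2 features it was the lower one, so a lower mean ratio could only become more negative. The count kept with the median feature is therefore largely set by that rule. Members that passed only under an alternative numbered 4 with centring, 2 with quantile normalization, 5 with the median feature and 2 with accessions weighted equally. The cause of these changes was not tested. Without intensities, signal over background is unknown, and no filter on dim features, background correction or slide block could be tried.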

Other observations

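Among features of the members, 1 had a ratio on 1 array only. It belonged to ARID2, a DNA-binding subunit of a BAF-type remodeller, and read -0.13 with siRNA 6 and exactly 0 with siRNA 8, so it was left out, and the value of ARID2 (0.19) rests on its other feature. Of 215 member features, 18 were at exactly 0 on both arrays. CHD2 had 3 of its 4 features there. Of the 92 members, 53 had a lower ratio with siRNA 8 than with siRNA 6, where 4970 of the 12842 tested genes did.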
